A study of Mus musculus with 6 samples.

Results

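The retinoblastoma pocket proteins and the E2F transcription factors were compared between mouse embryonic stem cells without and with deletion of Dicer. The set holds 10 genes listed by family, a list drawn up with earlier results of these data known: the pocket proteins Rb1, Rbl1 and Rbl2, the factors E2f1 to E2f6, and the E2F partner Tfdp1. All 10 were measured, on 12 of the 35556 probe sets of the array, among 19938 genes with a single listed symbol. E2f3 and Tfdp1 had 2 probe sets each and the other genes 1. All probe sets with one of these genes as their only symbol were taken, and calls and counts rest on the brighter one of E2f3 and of Tfdp1. The cells were Dicer Fx/Fx embryonic stem cells, whose Dicer alleles can be removed by recombination. One group of 3 arrays held cells labelled as without deletion, called untreated here. The other group of 3 arrays held cells of the same genotype labelled tamoxifen and with Dicer deletion; tamoxifen was given for 3 days and cells were collected on day 5. Both groups thus carry the conditional alleles, and the recombinase, its promoter, the number of clones and the collection day of the untreated cells were not given in the sources used here. Tamoxifen-treated wild-type cells were not analysed here; tamoxifen and Dicer loss cannot be told apart. Nothing in the labels says that replicates came from separate cultures, so the p-values reflect the spread among these arrays alone, and that spread may be technical.

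Pocket proteins bind E2F factors and hold their target genes silent. When cyclin-dependent kinases phosphorylate the pocket proteins, E2F factors are freed and genes of DNA synthesis are transcribed. E2f1, E2f2 and E2f3 act mainly as activators bound by Rb1. E2f4 and E2f5 act mainly as repressors together with Rbl1 (p107) and Rbl2 (p130), and E2f6 represses without any pocket protein. Embryonic stem cells keep their pocket proteins largely phosphorylated and pass quickly from division to DNA synthesis. Dicer cuts the precursors of microRNAs, and the microRNAs of the miR-290 and miR-17 families, abundant in these cells, have been described as regulators of Rbl2 and of activator E2F factors.

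The mature microRNAs below, as listed by RefSeq on GRCm38.p6, are shown because they need Dicer and have been tied to these genes; they were not measured here. Each is written 5′ to 3′ with its seed, bases 2 to 8, in capitals. The members of the miR-290 and miR-302 families picked for display here share 1 seed:
mmu-miR-291a-3p: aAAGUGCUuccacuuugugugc
mmu-miR-294-3p: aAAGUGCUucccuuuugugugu
mmu-miR-295-3p: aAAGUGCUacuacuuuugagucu
mmu-miR-302b-3p: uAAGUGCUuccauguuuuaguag
The seed of the miR-17 family carries the same AAGUGC run set off by 1 base:
mmu-miR-17-5p: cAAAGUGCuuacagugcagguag
mmu-miR-20a-5p: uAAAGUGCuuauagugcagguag
The table held 5 mature microRNAs with the AAGUGCU seed and 7 with the AAAGUGC seed. Sites for them in the transcripts of the 10 genes were not analysed here.

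E2F factors are known to act on promoters of their own family, so the windows from 250 bases before to 50 bases after each listed start were searched for E2F-type sites. The letters searched were TTTGGCGC, TTTCCCGC, TTTCGCGC and TTTGCCGC, on both strands. RefSeq windows of GRCm38.p6 were listed for 7 of the 10 genes. Of these 7 genes 4 held a match, namely Rbl1, E2f2, E2f3 and Tfdp1. Of all 27025 genes with a window, 2.6% held a match, and of all 32851 windows 2.26%. The matches are printed 5′ to 3′ on the strand of the gene, with the searched letters in capitals:
Rbl1, chr2:157204534-157204563, minus strand: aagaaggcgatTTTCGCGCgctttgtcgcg
E2f2, chr4:136172294-136172323, plus strand: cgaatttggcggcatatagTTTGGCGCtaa
E2f3, chr13:29986056-29986085, minus strand: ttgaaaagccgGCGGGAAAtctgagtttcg
Tfdp1, chr8:13338697-13338726, plus strand: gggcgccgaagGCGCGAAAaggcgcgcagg
Counted from the listed start, with negative numbers before it, the match spanned bases -18 to -11 in Rbl1 and -11 to -4 in E2f3. In E2f2 it lay after the start, at bases 40 to 47. In Tfdp1 the same match fell in 2 listed windows, at -43 to -36 from one start and -96 to -89 from the other. The start listed for E2f1 lay 466 bases inside the gene, so its window does not cover the 5′ end of the gene. Of the 4 genes with a match, E2f2 was called after tamoxifen and the other 3 were not. Rbl2, E2f1 and E2f6, with a window but no match, were not called either. No window was listed for Rb1, E2f4 and E2f5, the other called members, so the search did not cover them. Whether changes differ between genes with and without a match was not tested.

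The arrays measured RNA as log2 intensity after robust multi-array averaging (RMA) by the authors, on a scale where a difference of 1 is a doubling. Across genes, the correlation between arrays was 0.9964 to 0.998 within the groups and 0.9927 to 0.9959 between them. Dicer1 fell by 1.85 ± 0.07 on the log2 scale (SE; limma adjusted p = 3.61e-05), and its groups did not overlap. All 9 listed embryonic stem cell markers were measured, and 0 were called by limma (0 higher and 3 lower by unadjusted p under 0.05, against 11.5% and 13.1% of all genes). Their summed level was 16.11 to 16.20 untreated and, just below it, 16.02 to 16.11 after tamoxifen. The summed level of the 8 fibroblast markers was 9.83 to 10.06 and 9.90 to 10.02, and that of the 7 primitive endoderm markers 10.14 to 10.37 and 10.14 to 10.23. The summed level of 4 measured mesoderm markers was 9.47 to 9.72 and 9.22 to 9.57. The summed level of the 5 neural markers stood apart, at 10.67 to 10.91 untreated and 11.07 to 11.51 after tamoxifen. Neurod1, the brightest of them and so the heaviest in the sum, was called higher (0.91 ± 0.18, limma adjusted p = 0.0194). Pax6 (0.08 ± 0.12, 0.756) and Nes (-0.0085 ± 0.16, 0.983) were not called, and their groups overlapped. The smallest p-values of the other lists were those of Utf1 (-0.26 ± 0.07, adjusted p = 0.0574) and Zfp42 (-0.19 ± 0.06, 0.0876) for stem cells, Thy1 (-0.32 ± 0.11, 0.0985) and Col1a1 (0.20 ± 0.09, 0.223) for fibroblasts, Pdgfra (0.36 ± 0.09, 0.0518) and Sox7 (-0.28 ± 0.08, 0.0603) for endoderm, and Eomes (-0.57 ± 0.23, 0.174) and Mixl1 (0.09 ± 0.07, 0.467) for mesoderm. With the replicate number as a block, which calls 17.4% of all genes, 2 stem cell markers fell (Utf1, 0.0193, and Tdgf1, 0.0326) and 3 neural markers rose (Neurod1, 0.000594, Tubb3, 0.00204, and Sox1, 0.0211). Pax6, Nes, Tdgf1, Tubb3 and Sox1 are named here after their values were seen. In the same fit Thy1 (0.00725), Eomes (0.00745) and Sox7 (0.041) also fell and Pdgfra rose (0.018). The unblocked call of Neurod1 was lost without untreated replicate 3 (0.0597), tamoxifen replicate 2 (0.0653) or tamoxifen replicate 3 (0.0729), and over all probe sets of the table (0.087). The part of other cell types in the results below was not tested. In such bulk samples, fewer cells of a type and less RNA per cell cannot be told apart.

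After tamoxifen, Rb1 and E2f5 rose, E2f2 and E2f4 fell, and the other 6 members did not pass the test. A gene counts as called at a Benjamini-Hochberg adjusted limma p under 0.05 over all genes. By that rule 4 of 10 members were called, against 7.78% of all genes; 3.79% of all genes were called higher and 3.99% lower. The members' median change was -0.03, beside 0.01 for all 19938 genes, and their changes ran from -0.48 to 0.73. With the replicate number as a block the same counts were found, 2 rising and 2 falling, against 17.4% of all genes (7.87% higher and 9.54% lower). By unadjusted p under 0.05, 2 members were higher and 3 lower, against 24.5% of all genes (11.5% and 13.1%). The count was 1 without untreated replicate 2, tamoxifen replicate 2 or tamoxifen replicate 3, 2 without untreated replicate 3, and 3 without replicate 1 of either group. The first 4 of these fits called, in that order, 516, 355, 539 and 908 of all 19938 genes. Without replicate 1 of the untreated or the tamoxifen group 1213 or 1580 genes were called, against 1552 with all arrays. In 6 of the 10 members the groups did not overlap, 3 higher and 3 lower, against 29.3% of all genes (14.5% higher and 14.8% lower).

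**Figure D1:**
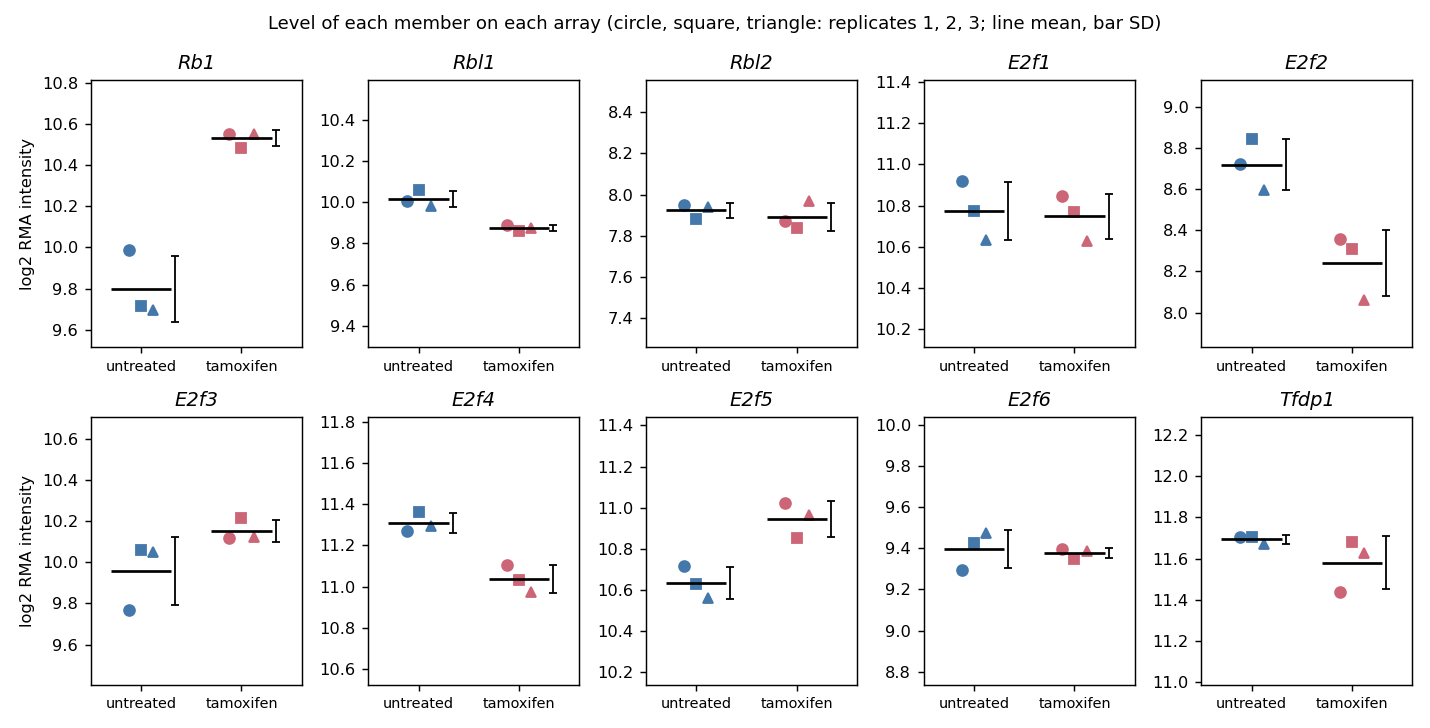
Level of each member on each of the 6 arrays, as log2 RMA intensity of the brightest probe set; blue marks are untreated and red marks tamoxifen arrays, circles, squares and triangles are replicates 1, 2 and 3, lines are group means and bars SD (n = 3). All panels span the same height on the log2 scale around each gene's own mean, and Rb1 shows the widest gap between the groups, from 9.80 to 10.53.

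Of the pocket proteins, Rb1 rose, while Rbl1 and Rbl2 were not called. Rb1, the retinoblastoma tumour suppressor that restrains activator E2F factors, had levels of 9.98, 9.72 and 9.69 on the untreated arrays of replicates 1, 2 and 3. After tamoxifen its levels were 10.55, 10.48 and 10.55. Every tamoxifen array lay above every untreated array, and untreated replicate 1 was the highest of its group. The mean rose from 9.80 ± 0.16 to 10.53 ± 0.04 (SD, n = 3), which is 0.73 ± 0.09 (SE) in log2 units and 1.66-fold in linear ones, with a 95% confidence interval from 1.45-fold to 1.90-fold (limma adjusted p = 0.00389). By p it ranked 77 among the 19938 genes. The call was kept in 6 of 6 fits without 1 array and in all 11 other settings, including the fit to all probe sets (0.0345). Rb1 has 1 probe set, so settings that altered only the choice of probe sets left its estimate unchanged.

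Rbl1 encodes p107, the pocket protein of cycling cells and itself a known E2F target, with the promoter match printed above. Its levels were 10.004, 10.06 and 9.98 untreated and 9.89, 9.86 and 9.87 after tamoxifen. The tamoxifen levels were all under the untreated ones, by a narrow margin. The change was -0.14 ± 0.06 on the log2 scale and was not called (limma adjusted p = 0.17, or 0.132 with the replicate block). Its 95% interval ran from -0.27 to -0.01.

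Rbl2 encodes p130, the pocket protein of resting cells, which has been described as a target of the miR-290 family. Its levels were 7.95, 7.88 and 7.94 untreated and 7.87, 7.84 and 7.97 after tamoxifen, so the groups overlapped. The change was -0.03 ± 0.06 (limma adjusted p = 0.802), and its 95% interval, from -0.17 to 0.11, reached up to a rise of 1.08-fold. The mean signal of Rbl2 was the lowest of the members, yet mid-range among all genes, at percentile 51.0. RMA compresses changes of dim probe sets towards 0, and whether this one is compressed was not tested.

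The change of Rb1 was set against those of its relatives within each array. The log2 difference Rb1 minus Rbl1 was -0.02, -0.34 and -0.29 on the untreated arrays and 0.66, 0.63 and 0.68 after tamoxifen. It shifted by 0.87 ± 0.10 (SE), or 1.83-fold. The difference Rb1 minus Rbl2 was 2.04, 1.84 and 1.75 untreated and 2.68, 2.65 and 2.58 after tamoxifen, a shift of 0.76 ± 0.09 or 1.70-fold. The difference Rbl1 minus Rbl2 shifted by -0.11 ± 0.06, with untreated values of 2.06, 2.18 and 2.04 and tamoxifen values of 2.02, 2.02 and 1.91. In none of the 3 pairs did the groups overlap, though the gap in the last was narrow. The 3 pairs are not independent, since both pairs with Rb1 carry its own change and the last follows from the other 2. For each of the 3 pairs the two-sided exact permutation p was 0.1, also after adjustment over them. This is the smallest p that 3 against 3 arrays allow, so the test could not pass 0.05.

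**Figure D2:**
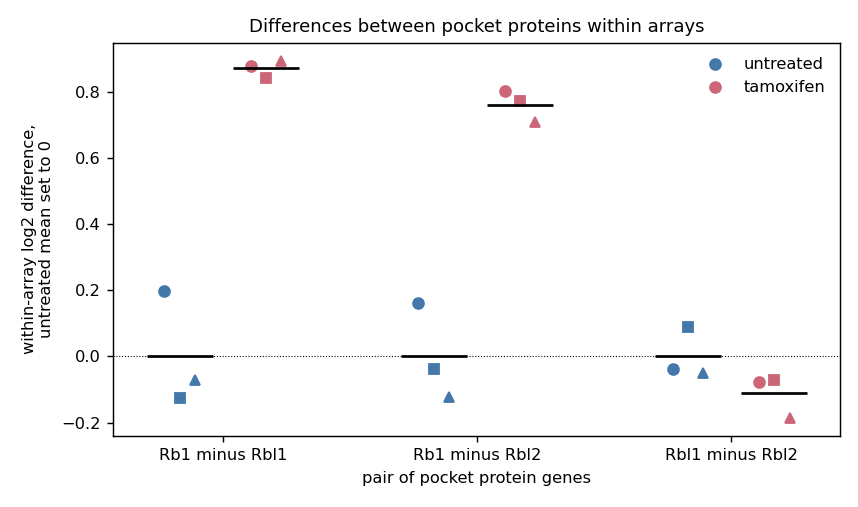
Within-array log2 difference between pairs of pocket protein genes, with the untreated mean of each pair set to 0; blue marks are untreated and red marks tamoxifen arrays, circles, squares and triangles are replicates 1, 2 and 3, and lines are group means. Both pairs with Rb1 shift upwards by 0.87 and 0.76, while Rbl1 minus Rbl2 shifts by -0.11.

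Among the activator E2F genes, E2f2 fell. E2f2 levels were 8.72, 8.84 and 8.60 untreated and 8.36, 8.31 and 8.06 after tamoxifen. The highest tamoxifen level was under the lowest untreated one, and replicate 3 was the lowest of both groups. The mean went from 8.72 ± 0.12 to 8.24 ± 0.16 (SD, n = 3), a log2 change of -0.48 ± 0.10 (SE) that left 71.9% of the untreated signal (limma adjusted p = 0.0224, or 0.00231 with the replicate block). The call was lost without untreated replicate 2 (0.0841), tamoxifen replicate 2 (0.0669) or tamoxifen replicate 3 (0.0684), and in the fit to all probe sets of the table (0.0867).

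E2f1, the activator best known for driving entry into DNA synthesis, had levels of 10.92, 10.77 and 10.63 untreated and 10.85, 10.77 and 10.63 after tamoxifen. The spread within each group was wide, with an SD of 0.14 and 0.11, yet arrays of the same number lay close together. The differences within the numbered pairs were -0.07, -0.0043 and -0.0008. The fitted change was -0.03 ± 0.09 with a 95% interval from -0.23 to 0.18 (limma adjusted p = 0.897), and its sign turned under other normalisations.

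E2f3, an activator that makes a long and a short protein from different promoters, had 2 probe sets. The brighter one read 9.77, 10.06 and 10.05 untreated and 10.12, 10.21 and 10.12 after tamoxifen. All its tamoxifen arrays lay above the untreated ones, with untreated replicate 1 far below the other untreated arrays. The change was 0.19 ± 0.09 and was not called (limma adjusted p = 0.218; interval from -0.01 to 0.39). The other probe set read 8.44, 8.93 and 9.01 untreated and 8.89, 9.03 and 8.87 after tamoxifen. Its groups overlapped and its change was 0.14 ± 0.14 (adjusted p = 0.592, fitted over all 1-symbol probe sets). Untreated replicate 1 was the lowest array on both probe sets; without it the brighter one changed by 0.10.

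**Figure D3:**
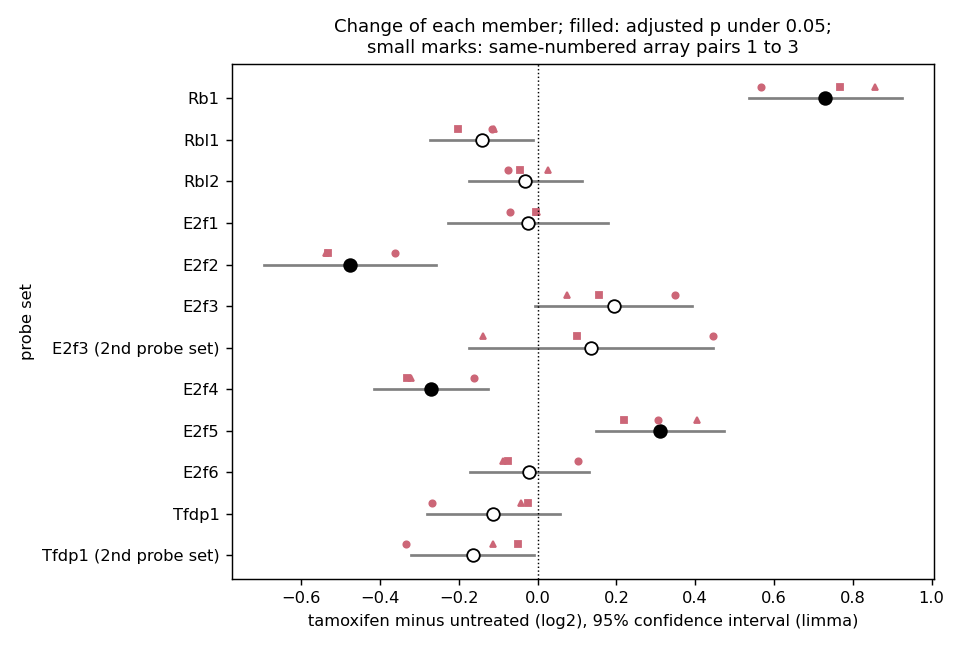
Tamoxifen minus untreated change of all 12 probe sets on the log2 scale; large points are fitted changes, filled where the gene was called at an adjusted limma p under 0.05, lines are 95% confidence intervals, and small red marks are the differences of same-numbered array pairs (circle 1, square 2, triangle 3). Rb1 and E2f5 lie to the right and E2f2 and E2f4 to the left of 0, with all 3 pair differences on the same side. The 3 pair differences also share a side for Rbl1, E2f1, both Tfdp1 probe sets and the brighter E2f3 one, which were not called.

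The repressor genes E2f4 and E2f5, whose proteins work with p107 and p130, changed in opposite directions. E2f4 levels were 11.27, 11.36 and 11.30 untreated and 11.11, 11.03 and 10.97 after tamoxifen. E2f5 levels were 10.72, 10.63 and 10.56 untreated and 11.02, 10.85 and 10.96 after tamoxifen. Neither gene's groups overlapped. E2f4 fell by 0.27 ± 0.06 on the log2 scale, to 82.8% of the untreated signal (limma adjusted p = 0.0376, or 0.021 with the replicate block). E2f5 rose by 0.31 ± 0.07, or 1.24-fold (adjusted p = 0.0357, or 0.0124 with the block). The pair differences were -0.16, -0.33 and -0.32 for E2f4 and 0.31, 0.22 and 0.40 for E2f5.

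Both calls rested close to the threshold. E2f4 was called without tamoxifen replicate 1 (limma adjusted p = 0.0401). Leaving out untreated replicate 1, 2 or 3 gave 0.053, 0.128 and 0.0782, and the value was 0.132 without either tamoxifen replicate 2 or tamoxifen replicate 3. E2f5 was called without untreated replicate 1 (0.0374). Leaving out untreated replicate 2 or 3 gave 0.107 and 0.0927, and leaving out tamoxifen replicate 1, 2 or 3 gave 0.0787, 0.0664 and 0.114. After cyclic loess E2f4 was at 0.0515, and in the fit to all probe sets of the table E2f4 was at 0.0968 and E2f5 at 0.0976.

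E2f6, which recruits a polycomb complex to germline promoters, had levels of 9.30, 9.42 and 9.47 untreated and 9.40, 9.35 and 9.38 after tamoxifen. The groups overlapped, and the tamoxifen arrays lay within the range of the untreated ones. The change was -0.02 ± 0.07 with an interval from -0.17 to 0.13 (limma adjusted p = 0.88), and its sign turned under other normalisations. Tfdp1 encodes DP1, which pairs with E2F proteins to bind DNA. Its brighter probe set read 11.71, 11.70 and 11.67 untreated and 11.44, 11.68 and 11.63 after tamoxifen. Tamoxifen replicate 1 was the low array, and the change of -0.11 ± 0.07 was not called (adjusted p = 0.399); without that array it was -0.04. The other Tfdp1 probe set read 10.92, 10.78 and 10.79 untreated and 10.59, 10.73 and 10.68 after tamoxifen. Its groups did not overlap and its change was -0.17 ± 0.07 (adjusted p = 0.183, fitted over all 1-symbol probe sets).

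Genes known as E2F targets, most of them enzymes and factors of DNA replication, were taken as a list of 30. Of 28 measured, 1 rose, 1 fell and 26 were not called, a share to be read beside the 7.78% of all genes called. Their median change was -0.06, beside 0.01 for all genes. Of their changes 19 were below 0 and 9 above, beside 9330 and 10606 of all 19938 genes. By unadjusted limma p under 0.05, 4 were higher and 5 lower, against 11.5% and 13.1% of all genes. The groups did not overlap in 5 targets that were higher and 11 that were lower, against 14.5% and 14.8% of all genes. Cyclin E2 (Ccne2), which activates the kinase Cdk2, had levels of 8.75, 8.72 and 8.89 untreated and 9.04, 9.27 and 9.23 after tamoxifen. It rose by 0.39 ± 0.08 (limma adjusted p = 0.0264). Orc1, a subunit of the complex that marks replication origins, had levels of 10.34, 10.45 and 10.50 untreated and 10.13, 9.93 and 10.08 after tamoxifen. It fell by 0.38 ± 0.08 (adjusted p = 0.0209). In neither gene did the groups overlap. The number of called targets was 0 without untreated replicate 2 or tamoxifen replicate 2 or 3, and 1 without untreated replicate 1 or 3. In that order, these fits called 516, 355, 539, 1213 and 908 of all 19938 genes, against 1552 with all arrays.

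Ccne2 was called without untreated replicate 3 or tamoxifen replicate 1, and its limma adjusted p was 0.0584, 0.0969, 0.109 and 0.0949 without untreated replicates 1 and 2 and tamoxifen replicates 2 and 3. Orc1 was called without untreated replicate 1 or tamoxifen replicate 1, and was at 0.0777, 0.0619, 0.085 and 0.0648 without untreated replicates 2 and 3 and tamoxifen replicates 2 and 3. Over all probe sets of the table they were at 0.0889 and 0.0777. Of the other targets, Uhrf1, picked after its values were seen, had the smallest p. It maintains DNA methylation at replication forks, and its change was -0.27 ± 0.08 (adjusted p = 0.0676, or 0.0136 with the replicate block). With the block 1 target rose and 2 fell, against 7.87% and 9.54% of all genes. The replicative helicase genes Mcm2 to Mcm7, also picked afterwards, had changes from -0.19 (Mcm4) to 0.11 (Mcm7), none of them called. The relatives E2f7 and E2f8, repressors that are E2F targets themselves, and Tfdp2 were not called. E2f7 changed by 0.16 ± 0.08 (adjusted p = 0.254) and E2f8 by -0.16 ± 0.07 (adjusted p = 0.194).

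Upstream of the pocket proteins, cyclins and kinases that phosphorylate them were higher in part. Of 8 measured, 3 rose and 0 fell, against 3.79% of all genes called higher, and the median change was 0.20. By unadjusted limma p under 0.05, 4 were higher and 0 lower, against 11.5% and 13.1% of all genes. The groups did not overlap in 3 that were higher and 2 that were lower, against 14.5% and 14.8% of all genes. The 2 lower ones, named after their values were seen, were Ccne1 (-0.08 ± 0.06) and Cdk2 (-0.08 ± 0.06), neither of them called. Beside Ccne2, which is also in the target list, cyclin D1 (Ccnd1) and the kinase Cdk6 that it activates rose. Ccnd1 levels were 11.62, 11.78 and 11.62 untreated and 12.03, 12.43 and 12.24 after tamoxifen, a rise of 0.56 ± 0.10 (adjusted p = 0.0158). Without tamoxifen replicate 2 or 3 its adjusted p was 0.0567 and 0.0595, and over all probe sets of the table it was 0.0724. Cdk6 levels were 10.59, 10.70 and 10.71 untreated and 10.89, 11.05 and 10.93 after tamoxifen. It rose by 0.29 ± 0.07 (adjusted p = 0.0399).

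Cdk6 was called without tamoxifen replicate 1 (limma adjusted p = 0.0449) but not when another array was left out: the adjusted p was 0.0838, 0.0988 and 0.0686 for untreated replicates 1, 2 and 3 and 0.152 and 0.104 for tamoxifen replicates 2 and 3. Over all probe sets of the table it was 0.104. Cyclin D2 (Ccnd2), picked after its values were seen, had the widest change of the list and uneven arrays. Its levels were 8.15, 8.57 and 8.16 untreated and 8.52, 9.65 and 9.10 after tamoxifen, and the groups overlapped. The change of 0.80 ± 0.25 was not called (adjusted p = 0.0868), but passed with the replicate block (0.00415) and without tamoxifen replicate 1 (0.0147). Of 7 listed inhibitors of these kinases 6 were measured, and Cdkn1a was not, so nothing is said of it here. Of the 6 measured 0 were called by limma, against 7.78% of all genes. By unadjusted p under 0.05 1 was higher, against 11.5%. The values with the smallest p were those of Cdkn1c (0.30 ± 0.11, adjusted p = 0.137, or 0.016 without tamoxifen replicate 1) and Cdkn2b (0.13 ± 0.07, adjusted p = 0.298).

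The partners of the members were read next. The MuvB core joins p107 or p130 and E2f4 in the DREAM complex, which silences cell cycle genes. Of its 5 subunits 0 rose and 1 fell, against 3.79% and 3.99% of all genes. Lin52, the subunit whose phosphorylation assembles the complex, had levels of 9.67, 9.49 and 9.57 untreated and 9.19, 9.22 and 9.29 after tamoxifen. It fell by 0.34 ± 0.07 (limma adjusted p = 0.0209). Without untreated replicate 3, tamoxifen replicate 2 or tamoxifen replicate 3 the adjusted p was 0.0532, 0.0877 and 0.0546, and over all probe sets of the table it was 0.0724. The list's median change was -0.16, with 3 of 5 subunits lower at an unadjusted p under 0.05, against 13.1% of all genes.

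Of 9 measured corepressors and other partners of pocket proteins, 1 rose, 0 fell and 8 were not called, against 3.79% of all genes called higher and 3.99% lower. By unadjusted p under 0.05, 4 were higher and 0 lower, against 11.5% and 13.1%. The block called 2 higher, Smarca2 and, named after its values were seen, Arid4a (0.26 ± 0.08 without the block; adjusted p = 0.018 with it), against 7.87% of all genes. The remodelling ATPase Smarca2 rose by 0.32 ± 0.08 (limma adjusted p = 0.0448), a call lost after cyclic loess (0.0535), after renewed quantile normalisation (0.0607), over all probe sets of the table (0.119) and in each fit without 1 array. Those 6 adjusted p-values were 0.072, 0.0626 and 0.102 with untreated replicate 1, 2 or 3 left out and 0.0587, 0.164 and 0.114 with tamoxifen replicate 1, 2 or 3 left out. Smarca2 levels were 6.07, 6.16 and 5.92 untreated and 6.31, 6.44 and 6.34 after tamoxifen. Its mean signal was dim, at percentile 26.9 of all genes, and the filter on the dimmest 40% removed it. Of 7 E2F6 partners in its polycomb complex 0 were called by limma, against 7.78% of all genes, and 0 passed an unadjusted p under 0.05, against 24.5%. Max had the smallest p, with 0.17 ± 0.08 (adjusted p = 0.24), followed by L3mbtl2 with -0.16 ± 0.08 (adjusted p = 0.256).

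Of 5 germline genes described as repressed by E2F6, 0 rose and 1 fell, against 3.79% and 3.99% of all genes; E2f6 itself was not called. Slc25a31, a mitochondrial carrier of germ cells, had levels of 6.45, 6.16 and 6.54 untreated and 5.96, 5.87 and 5.90 after tamoxifen. It fell by 0.47 ± 0.10 (limma adjusted p = 0.0236). With a dim mean signal, at percentile 26.0 of all genes, Slc25a31 was removed by the filter on the dimmest 40%. It was called without untreated replicate 2 or tamoxifen replicate 1, and was at 0.0563, 0.0622, 0.096 and 0.0811 without untreated replicates 1 and 3 and tamoxifen replicates 2 and 3, and at 0.089 over all probe sets of the table. The meiotic cohesin gene Smc1b, picked after its values were seen, changed by -0.54 ± 0.24. It was not called (adjusted p = 0.212), but passed with the replicate block (0.00427) and without tamoxifen replicate 1 (0.0194). Its levels were 8.64, 8.15 and 8.07 untreated and 8.35, 7.51 and 7.38 after tamoxifen, with replicate 1 the highest of both groups.

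**Figure D4:**
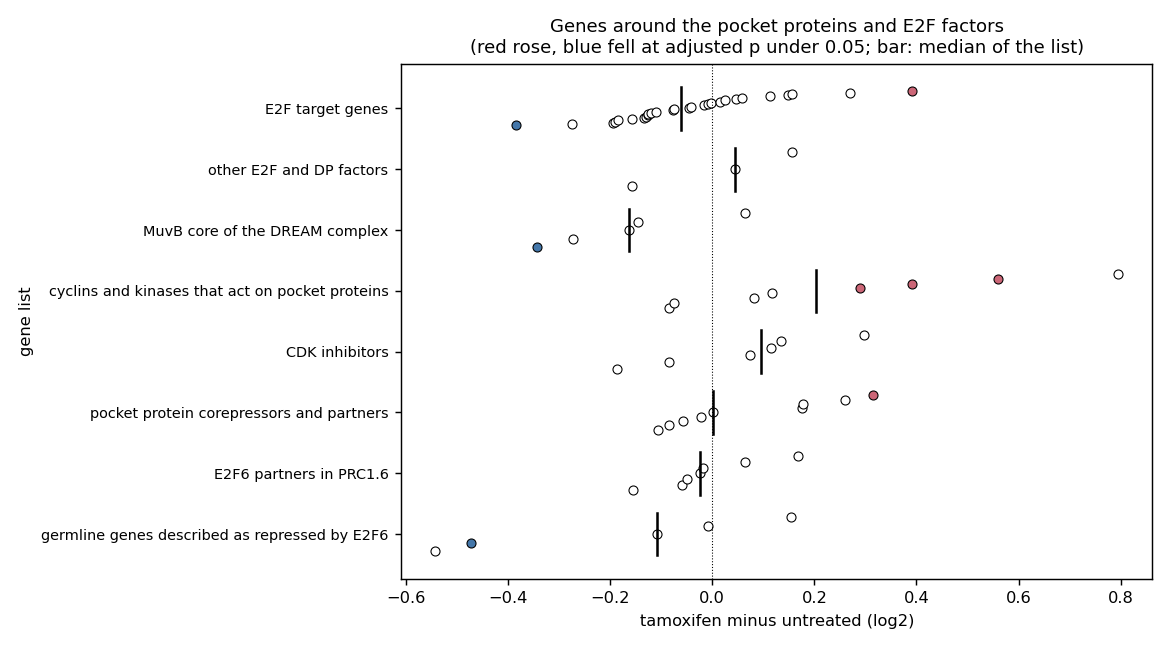
Tamoxifen minus untreated change (log2) of each measured gene in the lists around the pocket proteins and E2F factors; red points rose and blue points fell at an adjusted limma p under 0.05, white points were not called, and the black bar is the median of the list. Points are spread vertically for legibility; the medians run from -0.16 (MuvB core) to 0.20 (cyclins and kinases).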

How the data were processed

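RNA of 6 samples was measured on Affymetrix arrays. The deposited log2 values were made by the authors with RMA; the submitters' processing notes name Affymetrix Expression Console 1.2. Their range, from 3.18 to 14.6, gave the scale. No genome build was named for the array. Quantile normalisation, part of RMA, hides a shift shared by most transcripts, and RMA gives no detection call. Of 35556 probe sets, 21789 had 1 gene symbol; the brightest per gene was kept, leaving 19938 genes. The comparison used limma 3.58.1 (lmFit, eBayes, two-sided, no filter; R 4.3.3), with Benjamini-Hochberg adjustment over all genes. Second probe sets come from a fit to all 21789. Errors are SE for changes and SD for means, and summed marker levels are log2 of summed linear values. The number of arrays limits the precision.

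Members and lists were chosen with earlier results of these data known. The text names Dicer1, all members and, from each list, up to 3 called genes per direction, or otherwise the 2 with the smallest p. Others are said to be picked afterwards. Replicate numbers were checked for pairing: deviations of same-numbered arrays correlated at 0.356, 0.345 and 0.389, so a fit with the number as a block was run too. On simulated arrays of 19938 genes, limma recovered 78% of changes of 0.5 and 95% of changes of 1, with 8 false calls. The simulated noise was independent between genes and arrays and had no replicate effect, so these figures may not hold for the real arrays. Alternatives were the block, the mean of probe sets, other sets of probe sets, a filter on the dimmest 40%, 3 renormalisations, another variance prior, array weights, a threshold of 0.01 and leaving out each array. Sequences are those of RefSeq tables of GRCm38.p6.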

Additional observations from a re-analysis of the deposited data

How the results depend on the processing

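The call of Rb1 was kept under all 17 alternatives, and those of E2f2 and E2f5 under 9 and that of E2f4 under 8 of the 11 that kept all arrays. These 4 genes have 1 probe set each, so alternatives that altered only the choice of probe sets left their estimates unchanged. Of the 10 members 4 were called; the number was 1 over all probe sets of the table, 1 at the threshold of 0.01, and 1 to 3 when single arrays were left out. Of the E2F targets 2 were called, with 0 over all probe sets, 0 at 0.01, 3 with the replicate block, median centring, the other variance prior or array weights, and 0 to 2 without single arrays. Of all genes 1552 were called, but 3472 with the replicate block, 2511 with array weights, 276 at 0.01 and 355 to 1580 without single arrays. The fit to all probe sets of the table called 336 of 35556 probe sets, a count of probe sets and not of genes. The cause of these differences was not tested. The replicate block changed no member's call. The uncalled changes of E2f1 and E2f6 turned sign: to 0.0067 and 0.015 after renewed quantile normalisation and 0.017 and 0.023 after cyclic loess, and they ran from -0.096 to 0.047 and from -0.073 to 0.017 without single arrays. The within-array shifts ran from 0.81 to 0.97 for Rb1 minus Rbl1, 0.70 to 0.84 for Rb1 minus Rbl2 and -0.14 to -0.07 for Rbl1 minus Rbl2 without single arrays.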
